A study of Homo sapiens with 3 samples.

Results

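HAL1-2a_MD is a name that the deposited annotation files under LINE (long interspersed nuclear element), a class of transposon sequences. It was the most frequent LINE name under YBX1 ChIP-seq peaks in HEL cells. The members were all peaks of chromosomes 1 to 22 whose detailed annotation reads HAL1-2a_MD. They numbered 739 of 21546 peaks in YBX1 ChIP replicate 1, which is 3.43%, and 557 of 16208 peaks in replicate 2, which is 3.44%. A further 35 and 19 peaks with this name lay on chromosomes X and Y and were left out. The members were thus selected on being called as peaks, that is on their tag counts and p-values against the input, so tags, folds and scores are descriptions of how they look and not tests of enrichment.

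HEL cells are an erythroleukaemia line of human origin that carries mutated JAK2, and the study asked where YBX1 sits on their chromatin. The cells were untreated and in steady-state culture, and 2 ChIP libraries made with an anti-YBX1 antibody (Abcam, EP2708Y) were each compared with 1 shared input library of sheared chromatin. After removal of duplicate tags replicate 1 kept 10010819 tags, replicate 2 kept 9926271 and the input 74780414. Separate cultures for the replicates are not mentioned in the labels, and the p-values given here cover counting error over the peaks of these libraries, not the spread between cultures. The alignment named in the header of the replicate 2 list carries another number than its label, and the label was followed.

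YBX1, a protein with a cold-shock domain, binds both RNA and DNA and was named for the Y box, a motif of some promoters. LINEs are sequences that once spread by copying their RNA back into DNA. HAL1 elements are relatives of L1 that lack its second reading frame, which encodes the reverse transcriptase, and most copies in the genome are short fragments that no longer move. Simple tandem repeats, the other kind of repeat that matters here, are short units of a few bases repeated head to tail.

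Each peak carried a single name, so a peak on a boundary between a LINE fragment and a tandem repeat was filed under one of them. The name is that of the annotation. Whether the sequence under members is a LINE fragment or a tandem repeat was not tested. HAL1-2a_MD made up 29.1% of all LINE peaks in replicate 1 and 35.8% in replicate 2. The next most frequent LINE names were L2a with 277 and 128 peaks, L2c with 158 and 62, L2b with 107 and 71, and L1MC4 with 83 and 52 in replicates 1 and 2. The closest relatives by name were rare. HAL1 had 17 and 13 peaks, HAL1b 5 and 4, and HAL1-3A_ME 5 and 4. How many copies of each element the genome holds was not analysed here, so these counts are not rates per copy.

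HAL1-2a_MD peaks held more tags than peaks on other LINEs. Their median was 10 tags in replicate 1 and 9 in replicate 2, against 6 and 6 for other LINE peaks, 13 and 11 for tandem repeat peaks, and 9 and 8 for all peaks. Their tags ran from 5 to 455 in replicate 1 and from 5 to 236 in replicate 2. Over 50 tags stood in 68 members (9.20%) of replicate 1 and 30 (5.39%) of replicate 2, against 11 (0.610%) and 2 (0.20%) of the other LINE peaks, 7.06% and 4.11% of tandem repeat peaks, and 4.45% and 2.96% of all peaks. At the low end, 110 members (14.9%) and 109 members (19.6%) had only 5 tags, against 36.5% and 39.2% of other LINE peaks. These are differences between sets of peaks within a list and carry no test.

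The authors' fold enrichment compares the ChIP tags at a peak's summit with the background around it. For members it had a median of 53.9 in replicate 1 and 53.8 in replicate 2. For other LINE peaks the medians were 42.6 and 41.9, and for all peaks 53.9 and 54.4, so the members' median fold lay at that of the whole list. The folds ran from 12.3 to 210 in replicate 1 and from 12.7 to 177 in replicate 2. Folds this high come from few tags over a very low background. Among the members used for the background below, the median was 0.402 expected tags in replicate 1 and 0.376 in replicate 2. Members were wider than other LINE peaks, with median widths of 82 bp and 75 bp against 59 bp and 58 bp. The medians were 70 bp and 69 bp for all peaks, and 82 bp and 77 bp for tandem repeat peaks. The peak caller used a fragment shift of 20 bp with tags of 36 bp, so widths do not measure the extent of binding. The lowest member scores, 51.8 and 51.5 (the negative log10 of the p-value, times 10), lay just inside the calling threshold of 1e-05.

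The local background behind each fold was recovered from tags and score. Only peaks whose recovered summit height was a whole number were used, which were 710 members in replicate 1 and 542 in replicate 2. In replicate 1 its median at members was 1.14 times the genome-wide level, against 1.19 at other LINE peaks and 1.03 at tandem repeat peaks. In replicate 2 these values were 1.24, 1.20 and 1.06. Raised background of more than 2 times the genome-wide level was found at 65 members (9.15%) of replicate 1 and 83 (15.3%) of replicate 2, against 13.6% and 14.9% of other LINE peaks. Members thus stood on input levels much like those of other LINE peaks, while a minority lay where the input was itself raised.

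HAL1-2a_MD peaks of one replicate were often found again in the other. Of the 739 members of replicate 1, 437 (59.1%, 95% Wilson interval 55.6 to 62.6) overlapped a replicate 2 peak of any kind by at least 1 bp, where all peaks of that list gave 53.8%. Of the 557 members of replicate 2, 512 (91.9%, 89.4 to 93.9) overlapped a replicate 1 peak, where all peaks gave 77.5%. The replicate 1 share thus lay a little above the background of its list, and the replicate 2 share well above. Other LINE peaks gave 30.2% and 57.2%, and tandem repeat peaks 71.8% and 91.3%. Tandem repeat peaks on the units ACCATC, ACC and ATC, described below, gave 68.1%, 63.3% and 56.6% in replicate 1. In replicate 2 these units gave 90.2%, 89.4% and 83.9%. The share of members thus lay near those of these units, against which it was not tested. All intervals given here cover counting error only.

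The comparison with other LINE peaks was tested within ranges of tag count, because peaks with more tags are found again more often. An overlap with a peak of any name counted, and members lay in more crowded places. Another peak lay within 1 kb of 89.0% and 86.5% of members in replicates 1 and 2, against 64.8% and 60.3% of other LINE peaks. How far this adds to the gaps below was not tested. In replicate 1, members with 5 tags were found again in 26.4% of cases against 14.0% for other LINE peaks (Fisher's exact test, two-sided, with Benjamini-Hochberg adjustment over 10 tests, adjusted p = 0.00354). With 6 to 7 tags the shares were 37.2% and 22.7% (the same exact test, adjusted p = 0.00159), and with 8 to 10 tags 44% and 38.5% (adjusted p = 0.333). From 11 to 20 tags they were 71.5% and 64.1% (exact test, adjusted p = 0.171), and from 21 tags 97.1% and 94.3% (adjusted p = 0.323). In replicate 1 the gap was therefore seen among the weakest peaks, and in the upper 3 ranges it did not pass the test.

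In replicate 2 the gap passed in every range. With 5 tags 78.0% of members were found again against 35.2% of other LINE peaks (Fisher's exact test, adjusted p = 1.33e-14), with 6 to 7 tags 87.1% against 58.0% (adjusted p = 3.39e-08), and with 8 to 10 tags 96.0% against 74.2% (adjusted p = 6.86e-06). From 11 to 20 tags 98.5% stood against 91.6%, and from 21 tags 100% against 91.9% (exact test, adjusted p = 0.0276 for each). Over all ranges the Mantel-Haenszel odds ratio was 1.64 (exact conditional test, two-sided, p = 3.55e-06) for replicate 1 and 6.19 (p = 6.05e-31) for replicate 2. The replicate 1 call was lost among peaks with p of 1e-10 or below, where the odds ratio was 1.30 (exact p = 0.0966), and among the stronger 50% by fold, where it was 1.19 (exact p = 0.298). Members lie close together, so peaks are not independent, and with peaks within 1 kb merged into units the odds ratios were 1.4 (exact p = 0.0283) and 4.41 (exact p = 3.95e-12). A unit counted as found again if any of its peaks was, within the range of its highest tag count. A peak of the same kind lay within 1 kb of 69.7% and 68.0% of members in replicates 1 and 2. For other LINE peaks these shares were 27.3% and 19.8%. Units of members thus had more chances to be found again, which can raise these odds ratios.

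**Figure D1:**
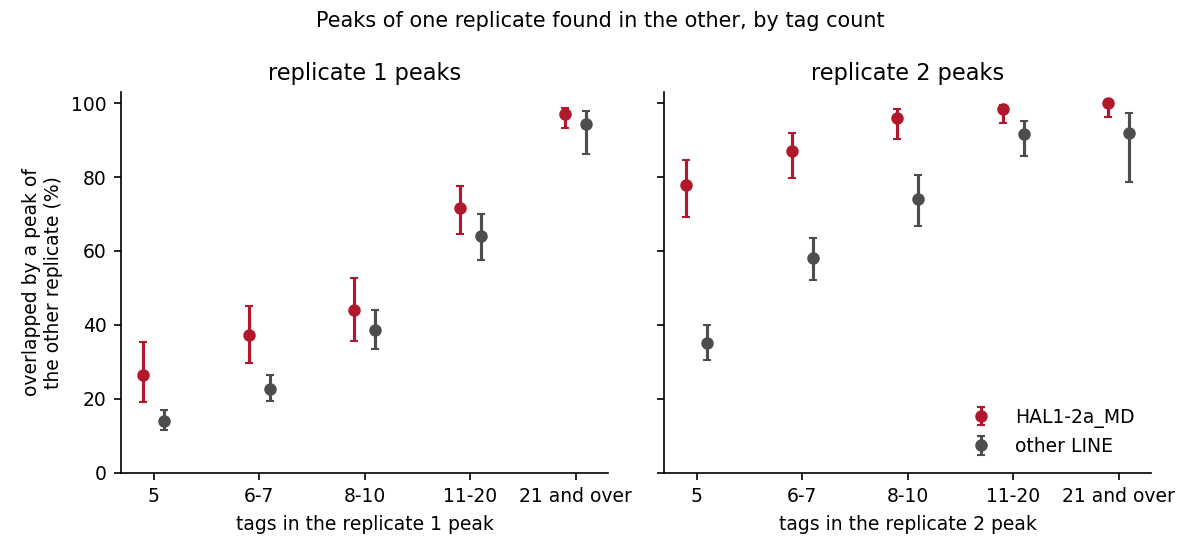
Share of peaks of one replicate that overlap a peak of the other (y axis, percent) by the number of tags in the peak (x axis), for replicate 1 and replicate 2 in separate panels. Points are HAL1-2a_MD and other LINE peaks, with 95% Wilson intervals. HAL1-2a_MD points lie above the other LINE points in each range, by most at 5 tags in replicate 2 (78.0% against 35.2%).

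Members found in both lists were the taller ones. In replicate 1 the 437 members found again had a median of 16 tags and a fold of 66.7, against 7 tags and 51.7 for the 302 found in that list alone. In replicate 2 the 512 found again had medians of 9 tags and 54.4, against 5 tags and 40.8 for the other 45. The partner in the other list had the same name for 386 of 437 members (88.3%) of replicate 1 and for 415 of 512 (81.1%) of replicate 2, and most other partners were peaks on neighbouring tandem repeats. Paired summits lay a median of 21 bp apart seen from replicate 1 and 30.5 bp seen from replicate 2.

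Merging overlapping peaks of any name across the lists gave 342 shared regions with a HAL1-2a_MD member in each list. Peaks of other names could join members that do not overlap each other, and they also set a region's coordinates. The 2 folds of a region can therefore come from members that do not overlap. Their folds were correlated between replicates with a Pearson r of 0.618 and a Spearman rho of 0.590 on the log2 scale, as a description over 342 regions that share 1 input library. Over the 75 regions that lay at the genome-wide background in both lists, where the fold does not depend on the input, Pearson's r was 0.492 and Spearman's rho 0.424. The fold was higher in replicate 1 in 233 regions and higher in replicate 2 in 109, and in 305 regions (89.2%) the 2 folds lay within 2-fold of each other.

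**Figure D2:**
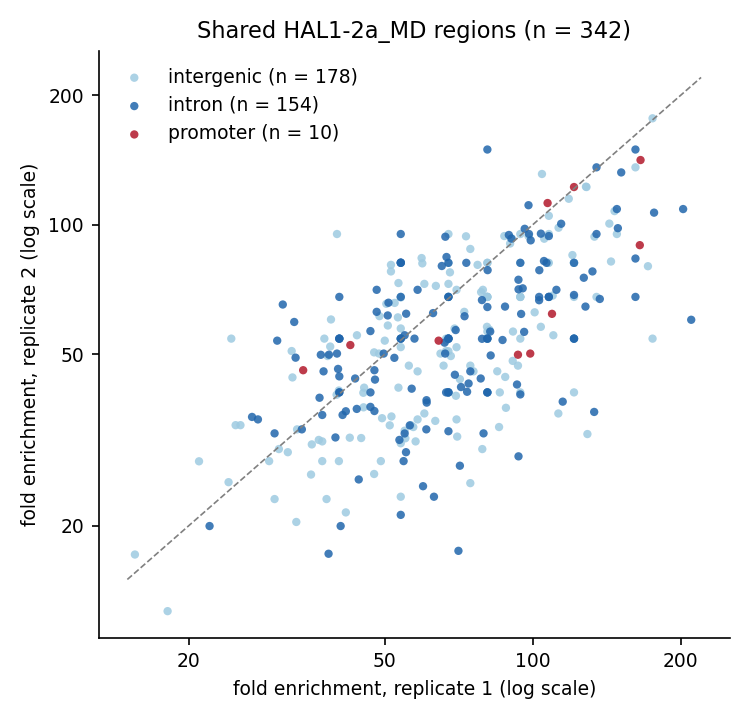
Fold enrichment in replicate 1 (x axis) against replicate 2 (y axis), both on log scales, for the 342 shared HAL1-2a_MD regions. Each point is a region and the line marks equal folds. Most points lie within 2-fold of the line and 233 lie on the replicate 1 side.

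The tags and fold given for a region are those of its member with the highest fold in each list. The strongest shared region, ranked by the lower of its 2 folds, lay between genes near HS6ST1, which encodes a heparan sulfate sulfotransferase, at chr2:129097921-129098108 (hg19, as are all positions). It had 39 tags and a fold of 175 in replicate 1, and 34 tags and a fold of 177 in replicate 2. The second lay in an intron of CDH13, the gene of T-cadherin, at chr16:83030570-83030824, with 59 tags at 162-fold and 29 tags at 150-fold in replicates 1 and 2; a second member brought its replicate 2 tags to 46. The folds of these regions lay close together in the replicates.

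Of the 20 strongest regions, 7 lay in introns, 10 between genes and 3 at promoters, and 19 had both folds at 100 or above. The intronic ones included SORCS2, which encodes a sorting receptor of neurons, at chr4:7725933-7726800, with 148-fold in replicate 1 and 109-fold in replicate 2. SPATA3 at chr2:231869614-231870390 held 334 tags in replicate 1 but 83 in replicate 2, at folds of 151 and 132. WDFY4, whose product acts in antigen presentation by dendritic cells, had 114-fold and 101-fold at chr10:50017175-50017299. The BAI1 intron, in the gene of an adhesion receptor, had 135-fold and 136-fold from only 16 and 12 tags. Tag number and fold therefore ranked these regions differently.

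LPA, the gene of apolipoprotein(a), had an intronic region at chr6:160956392-160956751 with 75 tags at 177-fold in replicate 1 and 56 tags at 107-fold in replicate 2. LPA is built of many near-identical repeated segments and has close copies nearby, so the placement of reads there is uncertain.

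Between genes, a region at chr16:27317291-27318037 was annotated to IL21R and IL4R, which encode cytokine receptors, and to KDM8 and NSMCE1, with 65 tags at 162-fold in replicate 1, where both its members held 84 tags, and 83 tags at 136-fold in replicate 2. A region at chr7:155109701-155109870 near INSIG1, a regulator of cholesterol synthesis, had 129-fold and 122-fold. One at chr16:86621289-86621927 near FOXF1, FOXC2 and the long noncoding RNA FENDRR had 133 and 57 tags at 143-fold and 101-fold. One near FBRSL1 at chr12:133039991-133040718 was among the deepest, with 325 and 231 tags at 113-fold and 98.5-fold. The other 6 lay near the genes SELPLG and ISCU (128-fold and 123-fold), DMRTA2 and FAF1 (118 and 115), MYEOV (147 and 108), CHST11 and TXNRD1 (104 and 131), and, for one on chromosome 4, near no named gene (108 and 105), besides the HS6ST1 region above.

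Promoters held 24 members in replicate 1 and 15 in replicate 2, at 13 and 11 genes, of which 9 genes had a member in both lists. These 9 were TTYH1, HPN-AS1, SLC22A11, MYEOV, TAS1R2, MIR4261, MIR598, DUSP26 and LPA. At TTYH1, which encodes a membrane protein of the brain, the strongest promoter region (chr19:54925238-54925392) had 31 tags at 166-fold in replicate 1 and 37 tags at 141-fold in replicate 2. At the antisense RNA gene HPN-AS1 (chr19:35596415-35596582) the values were 32 tags at 121-fold and 15 tags at 122-fold, and at SLC22A11, an organic anion transporter (chr11:64320565-64320768), 45 tags at 107-fold and 39 tags at 112-fold. DUSP26, a phosphatase gene, had one of the weakest, with 5 and 7 tags at 34.2-fold and 45.9-fold. Among the shared promoter regions MIR598 differed most in tags, with 109 tags at 98.9-fold in replicate 1 and 10 tags in a pair of members, the stronger with 5 tags at 50.2-fold, in replicate 2. In LPA the promoter peaks of the replicates did not overlap each other.

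The only exonic member lay in TUBGCP3, a gene of the gamma-tubulin complex, at chr13:113181153-113181256. It had 12 tags at 51.9-fold in replicate 1 and no overlapping peak in replicate 2. In introns lay 45.1% of replicate 1 members and 47.6% of replicate 2 members, against 38.5% and 38.8% of other LINE peaks. Promoters held 3.25% and 2.69% of members, against 1.55% and 1.70% of other LINE peaks and 3.32% and 3.45% of all peaks. The promoter share of members was thus no higher than that of the whole list.

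Shared regions lay in introns or at promoters of 100 genes, of which 13 held 3 or more. PTPRN2, which encodes a phosphatase-like protein of secretory vesicles, held 7, spread between positions 157759535 and 158257017 of chromosome 7. Its strongest, at chr7:157948109-157948540, had 73 tags at 202-fold in replicate 1 and 39 tags at 109-fold in replicate 2, or 100 and 61 tags over all its members. BAI1, BTBD11, CDH4 and PRKAR1B held 6 each. CDH4 encodes R-cadherin and PRKAR1B a regulatory subunit of protein kinase A. BAHCC1, CAMTA1, LPA, SHANK2 and SORCS2 held 4 each, and C22orf34, HSD17B14 and WDFY4 held 3 each. In BAHCC1, CAMTA1, LPA, HSD17B14 and WDFY4 all of them belonged to 1 place, so a count of regions can reflect how a single place was divided into peaks.

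Of the genes that the annotation named for any peak, 592 of 10460 (5.66%) were named for a member, and 2 of 31 (6.45%) in the lists of blood cell factors and signalling genes below, a share near that of all genes. Of 20 haematopoietic transcription factor genes, 12 were named by the annotation for any peak and 1 for a member, namely IRF8, a factor of myeloid and B cells. Its members lay between genes at 2 places on chromosome 16. At the first, replicate 1 had 14 tags at 74.7-fold and replicate 2 had 13 tags at 87.9-fold and a smaller peak of 7 tags beside it. At the second, replicate 1 had 14 tags at 47.6-fold and replicate 2 had 17 tags at 50.5-fold. Of 21 genes of ERK and MNK signalling, 7 were named for any peak and 1, the kinase gene BRAF, for a member, which had 10 tags at 53.9-fold in replicate 1 and no overlapping peak in replicate 2. Of 18 JAK-STAT genes 9 were named for any peak and 0 for a member, and of 7 Y-box genes 3 and 0.

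Peaks found in 1 list alone could still be steep. The strongest of replicate 1 lay near MYH8, MYH13 and GAS7 at chr17:10201054-10201119, with 14 tags at 135-fold. The strongest of replicate 2 lay on chromosome 8 near BAI1 and TSNARE1, with 8 tags at 85.6-fold. Both had few tags.

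Members came in clusters. When members of both lists within 1 kb were merged they formed 456 loci with a median span of 218 bp and a largest span of 1625 bp. In replicate 1, 192 loci held at least 2 separate members, and these held 517 of its 739 members. In replicate 2, 137 loci did so and held 379 of its 557 members. The fullest loci had 6 peaks in replicate 1 and 7 in replicate 2. Neighbouring summits lay a median of 149 bp and 163 bp apart in replicates 1 and 2. Of the HAL1-2a_MD loci 52.2% had at least 2 peaks in one of the lists, against 14.1% of 1963 other LINE loci and 22.6% of 8260 tandem repeat loci merged in the same way.

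**Figure D3:**
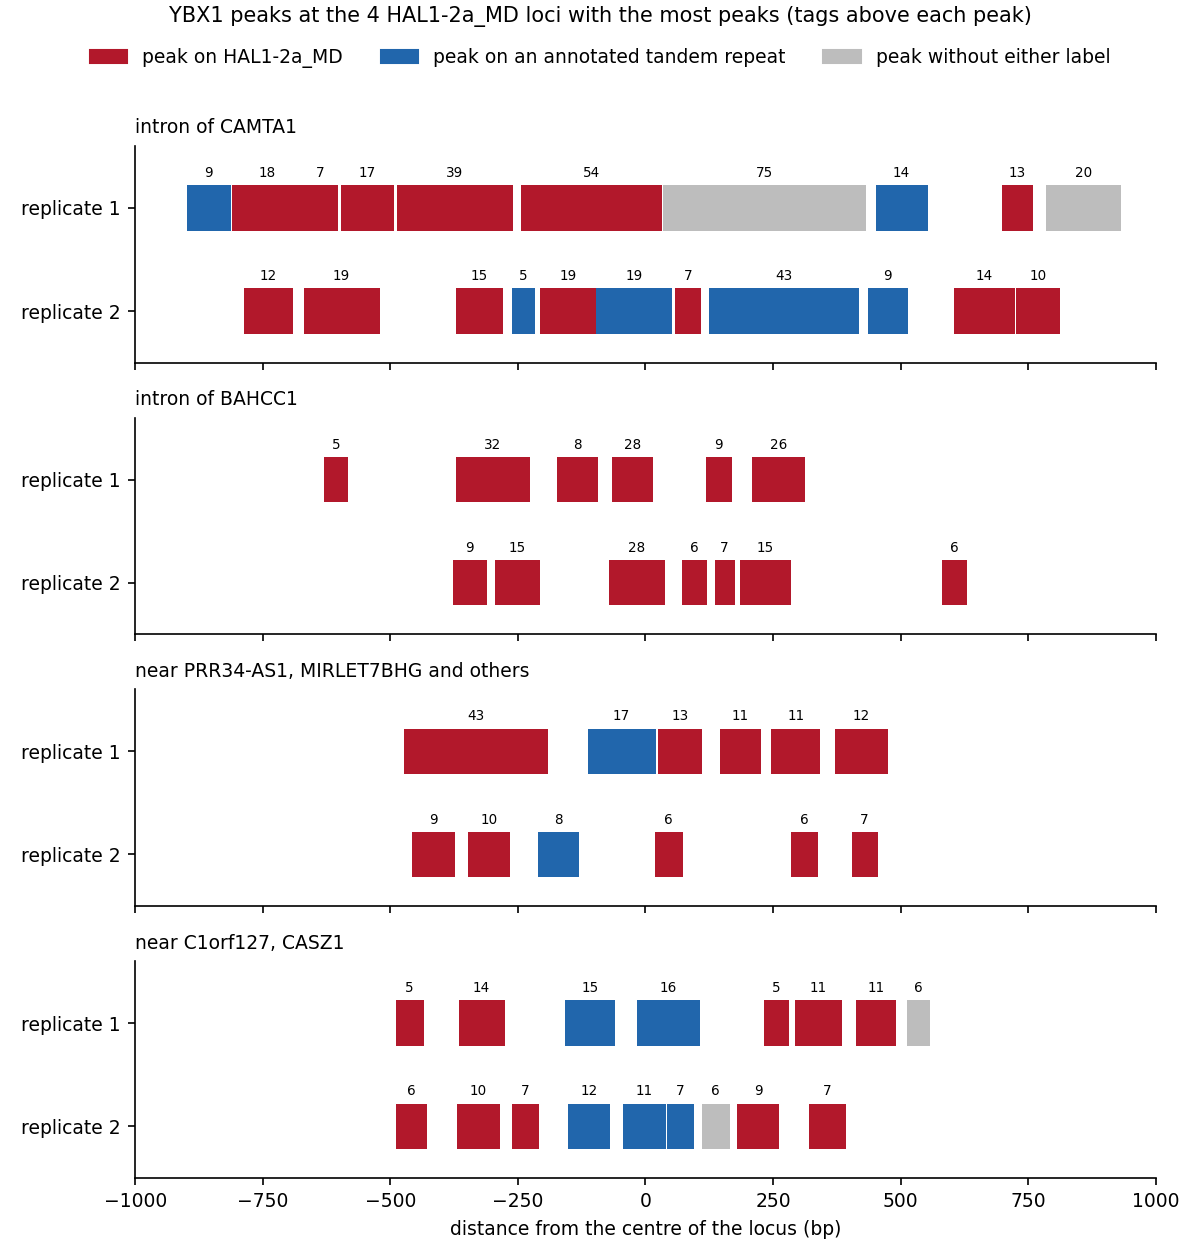
Peaks at the 4 HAL1-2a_MD loci with the most peaks, drawn by distance from the middle of the locus (x axis, bp). Bars are peaks of replicate 1 and replicate 2 on separate lines, coloured by the name the deposited annotation gave them, with the tags above each. HAL1-2a_MD peaks stood side by side, with tandem repeat peaks among them except in BAHCC1, and the CAMTA1 locus spanned 1622 bp with 6 members in replicate 1 and 7 in replicate 2.

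Of the 456 loci, 273 (59.9%, 55.3 to 64.3) had a member in each list, 141 in replicate 1 alone and 42 in replicate 2 alone. Among other LINE loci 23.1% were in both lists, and among tandem repeat loci 66.9%; these differences between loci were not tested. A tandem repeat peak of replicate 2 lay within 1 kb of 58 of the 141 loci of replicate 1 alone, and a tandem repeat peak of replicate 1 within 1 kb of 30 of the 42 of replicate 2 alone. These are 41.1% and 71.4%, where a tandem repeat peak of either list lay within 1 kb of 65.4% of all 456 loci. Such a peak can lie up to 1 kb away, so it does not show tags at the locus itself.

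Within loci replicate 1 held more tags than replicate 2. The median locus found in both had 34 tags in replicate 1 and 17 in replicate 2, and the count was higher in replicate 1 at 227 loci and in replicate 2 at 38, although the libraries kept nearly equal numbers of tags (ratio 1.01). The median ratio of replicate 1 to replicate 2 was 1.75 at HAL1-2a_MD loci, 1.23 at other LINE loci and 1.36 at tandem repeat loci. At the 81 loci with no tandem repeat peak close by, the ratio was 1.67, and when tags of nearby tandem repeat peaks were added at all 273 loci it was 1.72. Across the 273 loci the tags had a Pearson r of 0.682 and a Spearman rho of 0.683 on the log2 scale, again as a description of libraries that share an input. Why the libraries differ at these loci was not tested.

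The locus with most tags lay between genes near BUB3 at chr10:125013863-125015374. Its members held 455 tags in replicate 1 and 125 in replicate 2, while tandem repeat peaks beside it held 108 and 277. The COL22A1 intron on chromosome 8 showed the same exchange, with 436 and 57 tags under the HAL1-2a_MD name and 20 and 285 tags under tandem repeat names in replicates 1 and 2. Summed over both names, the replicates lay closer together at these loci than under either name. HIVEP3, a zinc finger gene, had no tandem repeat peak beside its intronic locus at chr1:42010233-42011524 and held 314 tags in replicate 1 and 236 in replicate 2, at 104-fold and 95.4-fold.

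The tandem repeats beside HAL1-2a_MD peaks had other units than those beside other LINE peaks. A tandem repeat peak of the same list lay within 1 kb of 463 members (62.7%, 59.1 to 66.1) in replicate 1 and of 336 members (60.3%, 56.2 to 64.3) in replicate 2, against 51.3% and 49.7% of other LINE peaks. The nearest of them had the unit ACCATC, ACC or ATC, counted over rotations and strands, for 453 of 463 members (97.8%) and 328 of 336 members (97.6%). For other LINE peaks with a tandem repeat neighbour these units made up 10 of 924 (1.08%) and 11 of 497 (2.21%), while AGAT or ATCC made up 97.3% and 96.2%. The units AGAT and ATCC, in turn, were nearest to 4 members (0.864%) of replicate 1 and 2 members (0.595%) of replicate 2. The shares lay far apart in both lists but were not tested.

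**Figure D4:**
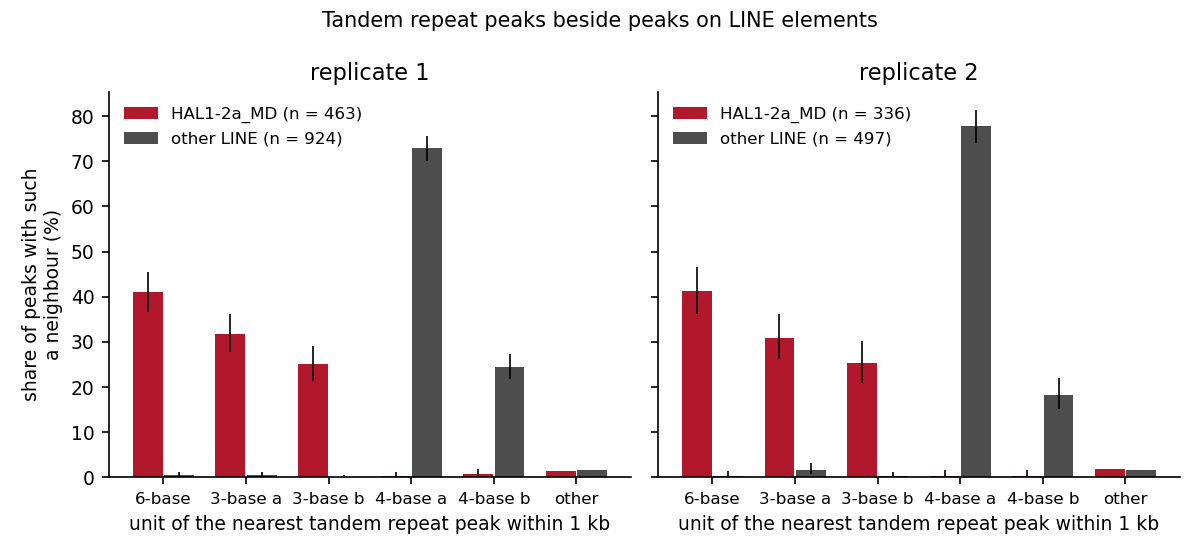
Unit of the nearest tandem repeat peak within 1 kb (x axis) as a percent of the peaks that have one (y axis), for HAL1-2a_MD and other LINE peaks in replicates 1 and 2, with 95% Wilson intervals for the named units. The 6-base unit is ACCATC, 3-base a is ACC, 3-base b is ATC, 4-base a is AGAT and 4-base b is ATCC. HAL1-2a_MD peaks fall almost wholly on the first 3 units (97.8% and 97.6%) and other LINE peaks on the 4-base units (97.3% and 96.2%).

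Among these neighbours ACCATC was nearest to 41.0% of members in replicate 1 and 41.4% in replicate 2, ACC to 31.7% and 31.0%, and ATC to 25.1% and 25.3%. Read from the side of the tandem repeats, 47.6% of ACCATC peaks in replicate 1 and 47.9% in replicate 2 had a HAL1-2a_MD peak within 1 kb. For ATC the shares were 47.7% and 48.2%, and for ACC 33.3% and 28.9%. For AGAT they were 0.0214% and 0.0460%, and for ATCC 0.0693% and 0.0853%. A large minority of the peaks on these 3 units thus lay beside a member, and peaks on the most common units of the lists hardly ever did.

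Different unit names at a locus nearly always kept one orientation. Counting peaks of both lists, at least 2 tandem repeat peaks of the 3 units lay close by at 246 loci. At 245 of them all names pointed the same way. A repeat called in both lists gives 2 peaks with the same name. At loci with a single name the agreement was therefore fixed in advance, and only the 77 loci with different names could disagree. In 115 loci the names were CACCAT, CAT or CCA, in 130 loci ATGGTG, ATG or TGG, which are the same units read on the other strand, and 1 locus was mixed. Of 77 loci with at least 2 different names, 76 kept one orientation, so that CACCAT stood with CAT or CCA, and ATGGTG with ATG or TGG. The strand of the LINE fragment itself was not used here.

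Members without a tandem repeat peak close by were found again less often by count. A peak of any kind in the other list counted, so members beside a tandem repeat could also be found through a peak on that repeat. In replicate 1, 63.9% (59.5 to 68.2) of the 463 members with such a neighbour and 51.1% (45.2 to 56.9) of the 276 without were found in replicate 2, where all peaks of that list gave 53.8%. In replicate 2 the shares were 95.8% (93.1 to 97.5) and 86.0% (80.8 to 89.9), where all peaks gave 77.5%. The median folds lay close together, at 54.7 with a neighbour and 53.9 without in replicate 1, and at 54.4 and 50.9 in replicate 2. These differences were not tested.

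HAL1-2a_MD loci gathered toward chromosome ends. Of the 456 loci, 169 (37.1%, 32.8 to 41.6) lay within 5 Mb of an end, against 162 of 1963 other LINE loci (8.25%, 7.12 to 9.55) and 1026 of 8260 tandem repeat loci (12.4%). These stretches make up 7.65% of the length covered. The median distance to the nearer end was 8.68 Mb for HAL1-2a_MD loci, 30.0 Mb for other LINE loci and 26.4 Mb for tandem repeat loci. Per list the shares of members were 38.3% in replicate 1 and 42.5% in replicate 2, against 7.99% and 10.2% of other LINE peaks, 20.4% and 19.98% of tandem repeat peaks, and 17.6% and 18.7% of all peaks. Tandem repeat peaks were mostly on AGAT and ATCC (4678 and 4327 of 10688 in replicate 1). Peaks on ACCATC, ACC and ATC, many of which lay beside a member, were not set apart here. Whether their placement differs from that of members was not tested. Where the copies of the element lie in the genome was not analysed here, so whether occupied copies differ from the others in place was not tested.

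**Figure D5:**
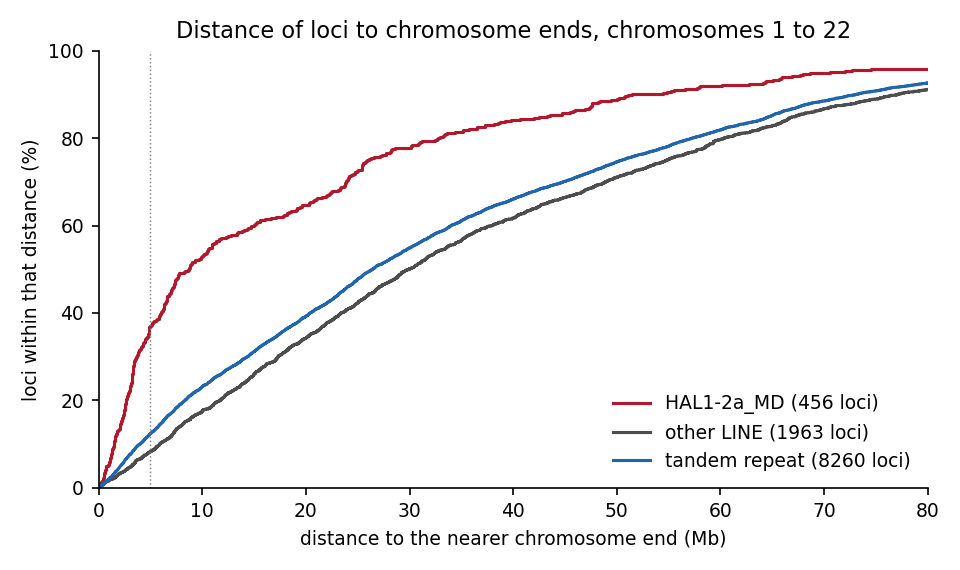
Cumulative share of loci (y axis, percent) by distance to the nearer chromosome end (x axis, Mb) for HAL1-2a_MD, other LINE and tandem repeat loci. The HAL1-2a_MD curve lies above the others and reaches 37.1% at 5 Mb, against 8.25% and 12.4%.

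The densest chromosomes were 22 with 53.5 loci per 100 Mb, 20 with 52.6, 16 with 44.3 and 12 with 31.5, against 15.9 over all chromosomes. Chromosome 3 was the sparsest with 4.04. On chromosome 20 all 17 loci near an end lay at the far end of the long arm, and on chromosome 16 18 of 19 did. On chromosome 7 they lay at both ends, 9 at the first and 11 at the last. The loci within 5 Mb of an end and those farther in looked alike in strength. Loci found in both lists had median tags of 38 in replicate 1 and 17 in replicate 2 near the ends, against 33 and 16 farther in, and median folds of 74.7 and 57.1 against 78.2 and 57.4. Near the ends 66.9% (59.5 to 73.5) of loci were in both lists and 70.4% (63.1 to 76.8) had a tandem repeat peak close by, against 55.7% (49.96 to 61.4) and 62.4% (56.6 to 67.8) farther in. These differences were not tested.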

How the data were processed

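Of the tools, Bowtie2, MACS 1.4, Trimmomatic 0.36 and bcl2fastq 02.14.01.07 come from the submitters' processing notes, which give hg19 as the build. Calling was by MACS 1.4.2, for each replicate against the one input, with a p-value threshold of 1e-05, per the file headers. The authors then filtered and annotated the lists (rule not given in the sources used here). For every peak the deposited lists hold a tag count, a fold (the authors' ratio of ChIP to background at the summit), a score, a false discovery rate in percent that was not used, a width and a summit. The score's column name was lost, and it was read from the values as the negative log10 of the p-value, times 10.

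From tag count and score the expected tags were recovered under the Poisson model. The summit height that the fold then gives was a whole number within 0.03 tags for 96.1% of replicate 1 members and 97.3% of replicate 2 members. Only peaks with such a height entered the background values. Scores above 3000 were not decoded. A pair of peaks was shared at an overlap of 1 bp, and peaks of both lists within 1 kb were merged into loci. The last peak's end stood for the chromosome length. Tandem units were grouped over rotations and strands. Shares carry 95% Wilson intervals. Sharing was compared with other LINE peaks by Fisher's exact test in 5 ranges of tag count per list with Benjamini-Hochberg adjustment over 10 tests, and over the ranges by Mantel-Haenszel odds ratios with an exact conditional test. The code was tested on simulated data. Python 3.11.15, pandas 2.3.3 and scipy 1.17.1 were used.

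The members, lists and tests were chosen with earlier results of these data known. Genes were named when they belonged to the 20 strongest shared regions, a promoter or exon, the strongest peak of a single list, a gene body with 3 or more shared regions, or the gene lists; BUB3, COL22A1 and HIVEP3 were chosen after their values were seen. Alternatives were other overlaps, thresholds, strata, distances and chromosomes. No hg19 genome was used, so no sequences are given.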

Additional observations from a re-analysis of the deposited data

How the results depend on the processing

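The shares of members found in the other list, 59.1% in replicate 1 and 91.9% in replicate 2 with a mean of 75.5%, became 52.0% and 86.4% when an overlap of 50% of the shorter peak was required. The replicate 1 share was 54.6% with p of 1e-10 or below and 47.6% among the stronger 50% by fold, where replicate 2 gave 84.5%. The odds ratio against other LINE peaks ranged from 1.19 to 3.35 in replicate 1 and from 2.76 to 8.53 in replicate 2 over all alternatives run, and in replicate 1 it was 1.30 (exact p = 0.0966) with p of 1e-10 or below and 1.19 (exact p = 0.298) among the stronger 50%. With p of 1e-10 or below, 463 and 302 members remained in replicates 1 and 2, with 192 shared regions and 231 in a single list in place of 342 and 347. The mean of the replicates' median fold was 53.9, and became 66.3 with p of 1e-10 or below and 60.9 at peaks on the genome-wide background; median tags of 9.5 became 15.5 and 7.5, and median widths of 78.5 bp became 109 bp and 71.8 bp. Tandem repeat peaks lay within 10 kb of 68.6% and 65.7% of members. Both distances to chromosome ends were added after seeing the data: 53.1% of loci lay within 10 Mb and 64.7% within 20 Mb, where the covered length gives 15.3% and 30.6%. The other 35 values kept their direction and their side of the threshold where they were tested, stayed within 1.5 times where they were counts (regions in a single list came to 431 at 50% overlap, in place of 347), and otherwise moved by less than the spread or interval. They include those with X and Y added and, added after seeing the data, loci merged at 500 bp and 5 kb. They also include values with 1 replicate left out of a mean of 2. Such a value always lies within the standard deviation of that mean, so it is no check. No paired analysis was possible because the labels number the replicates of the single ChIP group alone. Many members hold 5 tags, the fewest a peak has, and a member missing from a list is not shown to be unbound there. Of the members found in 1 list alone, 26.8% in replicate 1 and 53.3% in replicate 2 had 5 tags. Why members were missing from a list was not tested.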
